A study of Homo sapiens with 30 samples.

Results

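AQP3 (ENSG00000165272), the gene of the glycerol channel aquaporin 3, was followed as 1 of the 60675 gene rows of an RNA-seq table from A549 cells, an established human lung adenocarcinoma line. AQP3 was chosen by its own values in these libraries, since its level went up with dose under every extract, so its values by dose and against vehicle are given below as a description, without a test. Only differences between extracts at 1 dose, and between their changes with dose, were tested.

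The cells received an ethanol extract of 1 of 4 traditional Korean herbal formulas for 24 h, at 20 (low), 100 (medium) or 500 µg/mL (high), or the DMSO vehicle. Sibjeondaebo-tang and Palmul-tang had 3 libraries at each dose, Samul-tang 2, Sagunja-tang 1 and the vehicle 3, which made 30 libraries in 13 groups. Palmul-tang joins the herbs of Samul-tang and Sagunja-tang, and Sibjeondaebo-tang adds further herbs to these. The sample labels give 0.1% DMSO for the vehicle and the series text 2%, and which of these holds was not settled here. All samples come from 1 cell line, and nothing in the labels says whether replicate libraries came from separate cultures, so the spread between them may be technical. The labels put all libraries in 1 batch. The library codes begin in 1 way for Samul-tang and Sagunja-tang, in another for Palmul-tang and Sibjeondaebo-tang, and in another for the vehicle. What the codes mean was not given in the sources used here, so a difference between these sets of libraries cannot be told apart from a difference tied to the codes.

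Aquaporins are membrane channels for water. AQP3 belongs to the aquaglyceroporins, a branch that also lets glycerol and other small uncharged solutes through, and it is known to pass hydrogen peroxide. In epithelia it sits mainly in the basolateral membrane, and in the airway it is known from basal cells. Glycerol that enters a cell can be phosphorylated by glycerol kinase and then joined to fatty acids to make glycerolipids.

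The AQP3 promoter is shown with those of 2 genes whose levels followed AQP3 over the groups, GPAT3 and TIPARP, so that the letters upstream of each can be set side by side. The sequences are the 250 bases before the start of each gene in RefSeq, in build GRCh38.p14, written 5′ to 3′ on the strand of the gene. AQP3 lies at chr9:33447594-33447843 on the minus strand, GPAT3 at chr4:83535857-83536106 and TIPARP at chr3:156674340-156674589, both on the plus strand. Capitals mark every match, on either strand, to 3 motifs. The GC box, known as a binding site of the factor Sp1, was searched as GGGCGG. The TATA box, known for placing the start of transcription, was searched as TATAAA. The core site of the aryl hydrocarbon receptor was searched as GCGTG.
AQP3: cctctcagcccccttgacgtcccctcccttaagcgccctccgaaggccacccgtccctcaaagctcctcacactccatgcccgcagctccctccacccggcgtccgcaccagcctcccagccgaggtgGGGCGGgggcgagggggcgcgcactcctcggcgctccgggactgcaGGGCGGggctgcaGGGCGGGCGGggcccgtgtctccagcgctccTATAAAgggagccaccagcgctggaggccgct
GPAT3: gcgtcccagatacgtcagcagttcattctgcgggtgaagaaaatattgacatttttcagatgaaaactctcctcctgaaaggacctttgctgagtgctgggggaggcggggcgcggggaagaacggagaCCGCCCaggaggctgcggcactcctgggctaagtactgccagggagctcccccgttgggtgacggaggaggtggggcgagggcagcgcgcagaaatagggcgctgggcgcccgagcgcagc
TIPARP: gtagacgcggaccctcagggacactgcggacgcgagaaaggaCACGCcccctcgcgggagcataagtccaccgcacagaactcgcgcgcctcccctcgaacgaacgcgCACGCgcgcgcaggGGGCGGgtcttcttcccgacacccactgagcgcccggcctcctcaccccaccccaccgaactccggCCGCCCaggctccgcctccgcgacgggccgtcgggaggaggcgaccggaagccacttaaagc
The AQP3 window was 73.6% G or C, against a median of 58.0% over 35116 promoters in the RefSeq table. It held 4 GC box matches, which began 122, 76, 63 and 59 bases upstream of the RefSeq start, and the last 2 of these overlap. It also held 1 TATA box match, which began 32 bases upstream. GENCODE 29 starts AQP3 40 bases further upstream than RefSeq, so by that annotation the TATA box match lies inside the gene and the GC box matches before it. A GC box match was present in 42.6% of all these promoters and a TATA box match in 10.7%. The GPAT3 window held 1 GC box match, and the TIPARP window held 2 GC box matches and 2 receptor core matches. The receptor core, present in 32.2% of promoters, was not among the letters of the AQP3 window. The same held, on both strands, for the antioxidant response core (TGACNNNGC, in 10.9% of promoters) and the ATF4 composite core (TGATGNAA, in 3.1%). It held too for the AP-1 site (TGANTCA, in 6.6%) and the E-box (CACGTG, in 6.3%). No factor binding was measured, and a match is a match of letters only.

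In GENCODE 29 on GRCh38, AQP3 is a protein-coding gene on the minus strand of chromosome 9, from 33441154 to 33447633, with 2950 bases of merged exons. No other gene of that annotation overlaps it. AQP3 received between 1387 and 4375 expected counts per library, out of library totals between 23986637 and 35159898 expected counts. For counts of that size, counting alone gives a coefficient of variation between 1.51% and 2.69%. Between replicate libraries the coefficient of variation of AQP3 ran from 1.33% to 6.76% over the 10 groups with replicates. By mean level AQP3 ranked 2246 of the 17701 genes tested. Levels below are in CPM, counts divided by a library size that was scaled by TMM, a normalization that assumes most genes to be level between libraries. The high-dose libraries of Sibjeondaebo-tang had scaling factors of 0.923 to 0.936, below those of every other library. RLE size factors, another scaling, moved none of the AQP3 calls below.

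With Sibjeondaebo-tang, AQP3 stood at 61.9, 63.9 and 63.3 CPM at the low dose, at 68.0, 65.7 and 74.2 CPM at the medium dose and at 106.0, 110.0 and 115.5 CPM at the high dose. The 3 doses did not overlap, and the step up to the high dose was much the larger. With Palmul-tang, AQP3 stood at 62.8, 61.8 and 61.0 CPM at the low dose, at 69.0, 74.1 and 75.5 CPM at the medium dose and at 100.9, 107.1 and 106.5 CPM at the high dose. The 3 doses were again separate. With Samul-tang, AQP3 stood at 62.4 and 64.2 CPM at the low dose, at 73.0 and 70.3 CPM at the medium dose and at 93.9 and 92.1 CPM at the high dose. These high-dose libraries were below every other high-dose library. With Sagunja-tang, whose groups are single libraries, AQP3 stood at 63.5 CPM at the low dose, 71.5 CPM at the medium dose and 124.6 CPM at the high dose. Exact Poisson 95% intervals of these values, which cover counting error only, were 60.9 to 66.3, 68.6 to 74.5 and 120.9 to 128.4 CPM. In vehicle cells AQP3 stood at 61.7, 64.7 and 56.6 CPM, and the lowest of these came from the library with the smallest total.

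Taken over the extracts, the 9 low-dose libraries lay between 61.0 and 64.2 CPM, the 9 medium-dose libraries between 65.7 and 75.5 CPM and the 9 high-dose libraries between 92.1 and 124.6 CPM. In AQP3 the doses were thus separate whichever extract was used. AQP3 was chosen for its rise with dose, and how many other genes separate the doses in this way was not counted. The low-dose range fell inside the 56.6 to 64.7 CPM of the vehicle libraries.

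**Figure D1:**
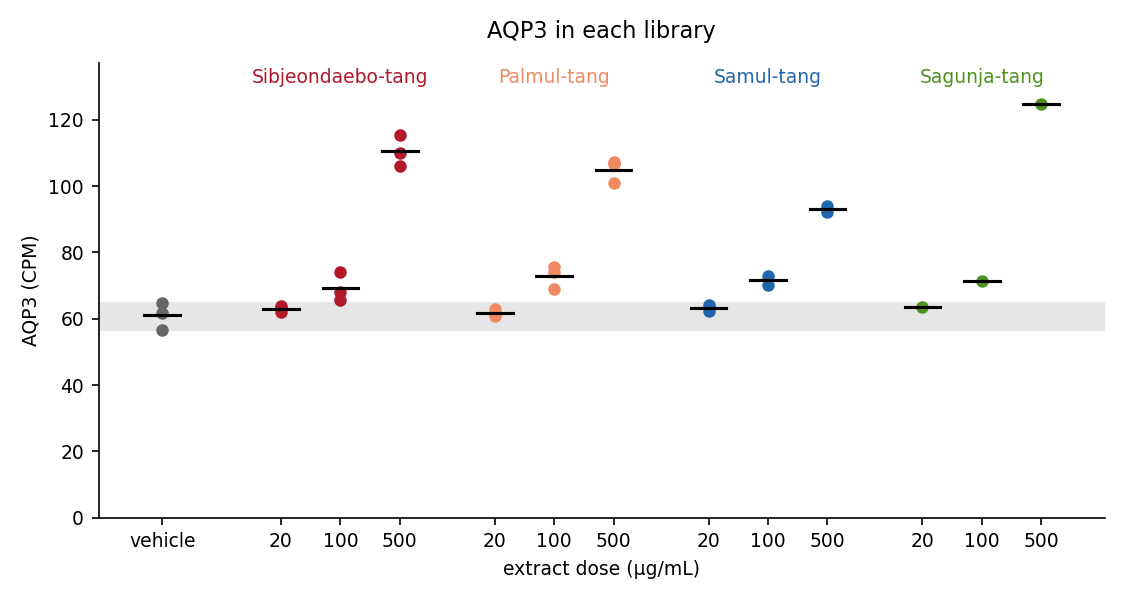
AQP3 level in CPM (vertical axis, from 0) by extract and dose in µg/mL, with vehicle at the low end; points are single libraries, lines are group means and the grey band is the range of the vehicle libraries. The high-dose libraries sit between 92.1 and 124.6 CPM, above every medium-dose library, while the low-dose libraries lie within the vehicle band.

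In order of mean level, Sagunja-tang at the high dose came highest at 124.6 CPM. Sibjeondaebo-tang at the high dose followed at 110.5 ± 4.78 CPM, Palmul-tang at 104.8 ± 3.46 CPM (SD, n = 3 each) and Samul-tang at 93.0 ± 1.24 CPM (SD, n = 2). The medium doses came next, with Palmul-tang at 72.9 ± 3.41 CPM, Samul-tang at 71.6 ± 1.92 CPM, Sagunja-tang at 71.5 CPM and Sibjeondaebo-tang at 69.3 ± 4.37 CPM. The low doses and the vehicle closed the order, between 63.5 CPM for Sagunja-tang and 61.0 ± 4.12 CPM for the vehicle. The ranges of neighbours in this order overlapped for Sibjeondaebo-tang and Palmul-tang at the high dose, among the 4 medium doses, and among the low doses and the vehicle. They did not overlap between Sagunja-tang and Sibjeondaebo-tang at the high dose, nor between Palmul-tang and Samul-tang at the high dose. Over the vehicle mean, the high-dose means were 2.04-fold for Sagunja-tang, 1.81-fold for Sibjeondaebo-tang, 1.72-fold for Palmul-tang and 1.52-fold for Samul-tang. At the medium dose the ratios to the vehicle mean ran from 1.14 to 1.19, and at the low dose from 1.01 to 1.04. These ratios share the 3 vehicle libraries, whose codes differ from those of all extracts.

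The change in AQP3 was uneven over the dose range. On the log2 scale of group means, the medium dose lay above the low dose by 0.13 for Sibjeondaebo-tang, 0.24 for Palmul-tang, 0.18 for Samul-tang and 0.17 for Sagunja-tang. The high dose lay above the medium dose by 0.67 for Sibjeondaebo-tang, 0.52 for Palmul-tang, 0.38 for Samul-tang and 0.80 for Sagunja-tang. Each of these steps is a 5-fold increase in extract. The step to the high dose made up 83.3% of the whole log2 change for Sibjeondaebo-tang and 82.6% for Sagunja-tang, against 69.1% for Palmul-tang and 67.8% for Samul-tang. The high-dose mean was 1.75-fold the low-dose mean for Sibjeondaebo-tang, 1.69-fold for Palmul-tang, 1.47-fold for Samul-tang and 1.96-fold for Sagunja-tang.

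For use in comparisons, the dose step was taken as the log2 difference of the high and low doses divided by 2, an average per 5-fold dose. Fitted with edgeR, it was 0.40 (SE 0.024) for Sibjeondaebo-tang, 0.38 (SE 0.024) for Palmul-tang and 0.28 (SE 0.029) for Samul-tang in AQP3. Among the 17701 genes tested, 0.599% had a larger step than AQP3 with Sibjeondaebo-tang, 0.881% with Palmul-tang and 2.5% with Samul-tang. With Sagunja-tang, 1.65% of genes had a larger difference of the high and low libraries. As background to how AQP3 was chosen, 447 genes (2.53%) had means in the order low, medium, high under all 4 extracts, and 57 genes (0.322%) were called higher in all 3 replicated dose steps.

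The tests ask whether the extracts differed in AQP3 once the dose was the same. At the high dose they differed between Sibjeondaebo-tang and Samul-tang, and no difference between extracts was found at the medium or low dose. At the high dose AQP3 was 1.19-fold higher with Sibjeondaebo-tang, at 110.5 ± 4.78 CPM, than with Samul-tang, at 93.0 ± 1.24 CPM (log2 0.25, 95% interval 0.14 to 0.36, edgeR quasi-likelihood test, adjusted p = 0.000858). In that comparison 21.3% of all genes were called, and 9.51% of all genes were called as higher, so a call there is common. The call held when each of the 5 libraries was left out in turn, with adjusted p from 0.000538 to 0.0271. These libraries also differ in their code, and the part of that in the difference was not tested. Their high-dose values are among those by which AQP3 was chosen, and what that choice does to the p-value was not tested either.

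Sibjeondaebo-tang and Palmul-tang were not separated at the high dose. AQP3 averaged 110.5 ± 4.78 CPM with Sibjeondaebo-tang and 104.8 ± 3.46 CPM with Palmul-tang (SD, n = 3 each; log2 0.08, 95% interval -0.02 to 0.17, edgeR adjusted p = 0.230), in a comparison where 30.3% of all genes were called. The upper end of that interval is a 1.13-fold difference, so these libraries do not show that both extracts gave the same level. Palmul-tang lay above Samul-tang at the high dose in every library, with 100.9, 107.1 and 106.5 CPM against 93.9 and 92.1 CPM. The log2 difference was 0.17 with a 95% interval from 0.07 to 0.28, but it did not pass over all genes (edgeR unadjusted p = 0.00239, adjusted p = 0.221), where 0.192% of genes were called.

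At the medium dose the log2 difference in AQP3 was -0.07 between Sibjeondaebo-tang and Palmul-tang (95% interval -0.17 to 0.03), -0.05 between Sibjeondaebo-tang and Samul-tang (-0.16 to 0.06) and 0.02 between Palmul-tang and Samul-tang (-0.08 to 0.13). At the low dose the same differences were 0.03 (-0.07 to 0.13), -0.01 (-0.12 to 0.10) and -0.03 (-0.14 to 0.08). None passed the edgeR test, with adjusted p of 0.893 or above. In these 6 comparisons 0 genes of 17701 were called, while between 426 and 1302 had an unadjusted p under 0.05. DESeq2 called AQP3 in none of the 6 either.

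**Figure D2:**
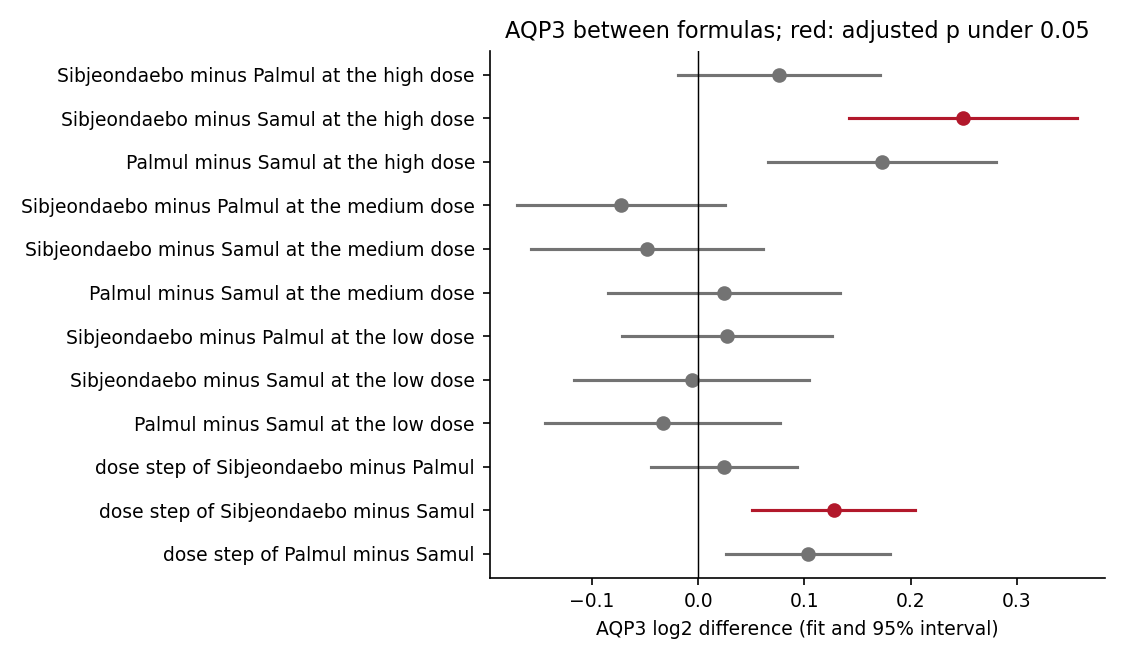
Log2 differences in AQP3 between extracts at matched doses, and between their dose steps (points, with 95% intervals as lines), from the edgeR fit; red marks an adjusted p under 0.05. At the high dose the interval for Sibjeondaebo-tang minus Samul-tang runs from 0.14 to 0.36, and at the medium and low doses every interval includes 0.

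The dose step of AQP3 was larger by 0.13 with Sibjeondaebo-tang (0.40) than with Samul-tang (0.28), on the log2 scale per 5-fold dose (95% interval 0.05 to 0.20, edgeR adjusted p = 0.0358). In that test 6.34% of all genes were called, and 1.59% of all genes were called as higher. The high and low values compared are among those by which AQP3 was chosen, and what that choice does to the p-value was not tested. The call lay near the threshold of 0.05 and was not stable. Leaving out any of 8 of the 10 libraries lost it, although the difference stayed between 0.11 and 0.15. Without a Samul-tang library, only 1 was left in its group. The adjusted p was 0.0682 and 0.156 without high-dose replicates 2 and 3 of Samul-tang, and 0.0662 and 0.134 without its low-dose replicates 2 and 3. It was 0.0595 without high-dose replicate 3 of Sibjeondaebo-tang, and 0.0590, 0.0532 and 0.0532 without its low-dose replicates 1, 2 and 3. Between Sibjeondaebo-tang and Palmul-tang the steps of AQP3 differed by 0.02 (95% interval -0.04 to 0.09, edgeR adjusted p = 0.697), with 14.9% of all genes called. Between Palmul-tang and Samul-tang they differed by 0.10 (0.03 to 0.18), which did not pass over all genes (unadjusted p = 0.0101, edgeR adjusted p = 0.782), where 0.00565% of genes were called.

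Sagunja-tang, with 1 library per dose, allows no test. Its AQP3 level at the high dose, 124.6 CPM, was 1.13 times the mean of Sibjeondaebo-tang, 1.19 times that of Palmul-tang and 1.34 times that of Samul-tang, and lay above every library of the 3. Its counting interval, 120.9 to 128.4 CPM, also lay above the highest of them, 115.5 CPM. At the medium dose the ratios of Sagunja-tang to the 3 other means were 1.03, 0.981 and 0.998, and its value lay inside the range of each. At the low dose the ratios were 1.01, 1.03 and 1.00. The spread of AQP3 between libraries of Sagunja-tang is unknown.

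AQP3 was by far the most abundant aquaporin. Per kilobase of merged exons, its median over libraries was 23.6 CPM (range 19.2 to 42.2), which is 26.3 times the 0.897 CPM per kilobase of AQP11 (0.707 to 1.31), an aquaporin of intracellular membranes. AQP7 and AQP1 followed at 0.0947 and 0.0923 CPM per kilobase, then AQP4 at 0.0758 and AQP6 at 0.0629. Those 4 had median counts of 10 to 17 per library, so small changes in them were not detectable at this depth. The remaining 8 aquaporins (MIP, AQP2, AQP5, AQP8, AQP9, AQP10, AQP12A and AQP12B) reached at most 4 counts in any library and were not tested. AQP7 is an aquaglyceroporin with near-identical copies in the genome, so its counts are uncertain.

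**Figure D3:**
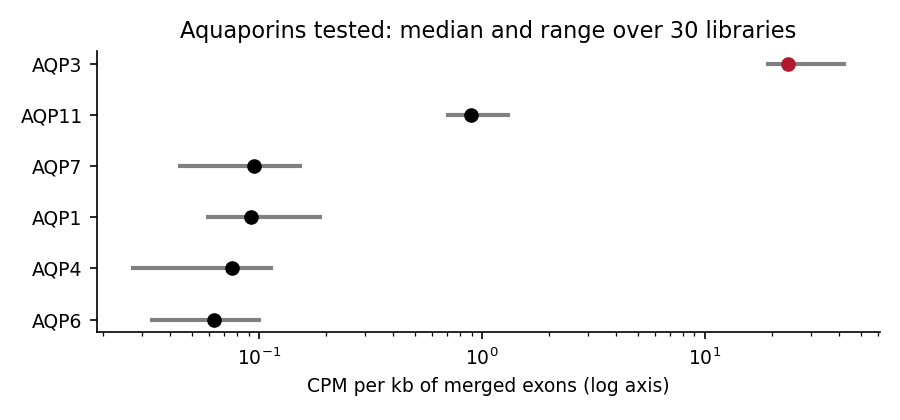
Level of the 6 tested aquaporins in CPM per kilobase of merged exons, on a log axis; points are medians and lines the range over 30 libraries. AQP3 lies between 19.2 and 42.2 and AQP11, the next, between 0.707 and 1.31.

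None of the 5 other tested aquaporins passed the test in a dose step, against 38.4% of all genes called with Sibjeondaebo-tang, 3.47% with Palmul-tang and 1.34% with Samul-tang. AQP1 had a dose step of 0.37 with Palmul-tang, close to the 0.38 of AQP3, but at a median of 10 counts per library it did not pass (edgeR adjusted p = 0.332), and it had -0.07 with Sibjeondaebo-tang and -0.04 with Samul-tang. AQP11 had a dose step of 0.03 with Sibjeondaebo-tang, -0.13 with Palmul-tang and -0.03 with Samul-tang (edgeR adjusted p of 0.599 or above). Its counts, between 51 and 92 per library, leave wide errors. At the low dose of the 3 replicated extracts against vehicle, where 42.6% of all genes were called, AQP4 was higher (log2 0.90, edgeR adjusted p = 0.0235). That call was lost without vehicle replicate 3 (adjusted p = 0.135) and with DESeq2 (adjusted p = 0.0671), and AQP4 had between 4 and 24 counts per library. AQP3 in the same comparison had a log2 difference of 0.04 (95% interval -0.04 to 0.12).

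The genes around AQP3 were read in the same way. Of 28 annotated genes that start within 250 kb of it, 10 were tested. In the dose step of Sibjeondaebo-tang 1 of these rose and 1 fell, where 18.5% of all genes rose and 19.9% fell. In those of Palmul-tang and Samul-tang 0 were called, where 3.47% and 1.34% of all genes were. NOL6, a nucleolar protein gene that starts 26.3 kb away, had a step of 0.05 with Sibjeondaebo-tang (edgeR adjusted p = 0.0138), 0.01 with Palmul-tang and -0.01 with Samul-tang, against 0.40, 0.38 and 0.28 for AQP3. A fit to the groups compared alone lost that NOL6 call (adjusted p = 0.0573). NFX1, a transcription factor gene at 157.1 kb, had -0.07 with Sibjeondaebo-tang (adjusted p = 0.0137), and its call was lost without high-dose replicates 1 or 3 (0.0978 and 0.171) or low-dose replicates 1 or 2 (0.0507 and 0.0626). AQP7, which starts 45.0 kb from AQP3, had steps of -0.13, 0.04 and 0.28, with adjusted p of 0.492 or above.

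With Sibjeondaebo-tang, genes that handle glycerol inside the cell were called about as often as genes in general. In the dose step of Sibjeondaebo-tang, where 18.5% of all genes rose and 19.9% fell, 5 of 18 tested genes of glycerol use and release rose and 2 fell. With Palmul-tang 0 rose and 1 fell, where 1.46% of all genes rose and 2.02% fell. With Samul-tang 0 rose and 1 fell, where 0.604% of all genes rose and 0.74% fell. The median step of the 18 was 0.05, -0.01 and 0.03, against -0.01, 0.00 and 0.00 over all genes. GK5, a member of the glycerol kinase family, fell by 0.33 per dose step with Sibjeondaebo-tang and had -0.07 (adjusted p = 0.304) with Palmul-tang. With Samul-tang GK5 had -0.15 (adjusted p = 0.0453), a call lost without high-dose replicate 2 (0.291), high-dose replicate 3 (0.167) or low-dose replicate 3 (0.477). GK, of the same family, had -0.10 with Sibjeondaebo-tang, -0.05 with Palmul-tang and -0.17 with Samul-tang, and none passed (edgeR adjusted p of 0.234 or above). MGLL, the lipase that frees glycerol from monoglycerides, fell by 0.11 with Palmul-tang (adjusted p = 8.3e-05) and had 0.02 with Sibjeondaebo-tang (adjusted p = 0.520). The count of 5 for Sibjeondaebo-tang became 3 without its low-dose replicate 2.

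In triglyceride synthesis and lipid droplets, the list nearest to glycerol's onward use, 5 of 23 tested genes rose and 4 fell with Sibjeondaebo-tang, shares near the 18.5% and 19.9% over all genes. With Palmul-tang 3 rose and 0 fell, against 1.46% of all genes that rose, and with Samul-tang 2 rose and 0 fell, against 0.604%. GPAT3, an enzyme that joins glycerol 3-phosphate to a fatty acid, had 16.9, 15.4 and 15.9 CPM with Sibjeondaebo-tang at the high dose, against 9.98, 9.69 and 9.37 CPM at the low dose. With Palmul-tang it had 16.6, 14.2 and 14.0 CPM at the high dose, against 10.3, 9.81 and 9.51 CPM at the low dose. The steps of GPAT3 were 0.37 and 0.30 (edgeR adjusted p = 1.81e-09 and 1.34e-06), a little below the 0.40 and 0.38 of AQP3. With Samul-tang the GPAT3 step was 0.16 (adjusted p = 0.0667). PLIN2, a lipid droplet coat protein, rose by 0.21 with Sibjeondaebo-tang, by 0.12 with Palmul-tang and by 0.16 with Samul-tang, the last with 72.0 ± 2.18 CPM at the high dose and 57.4 ± 0.447 CPM at the low dose (SD, n = 2 each; edgeR adjusted p = 0.000642). LPIN1 and LPIN3, phosphatidate phosphatases of the same pathway, fell by 0.19 and 0.47 with Sibjeondaebo-tang. Leaving out 1 library moved the count for Samul-tang to 1, whichever of the 4 it was. For Palmul-tang the 0 that fell became 2 without high-dose replicate 3 and 1 without low-dose replicate 1.

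**Figure D4:**
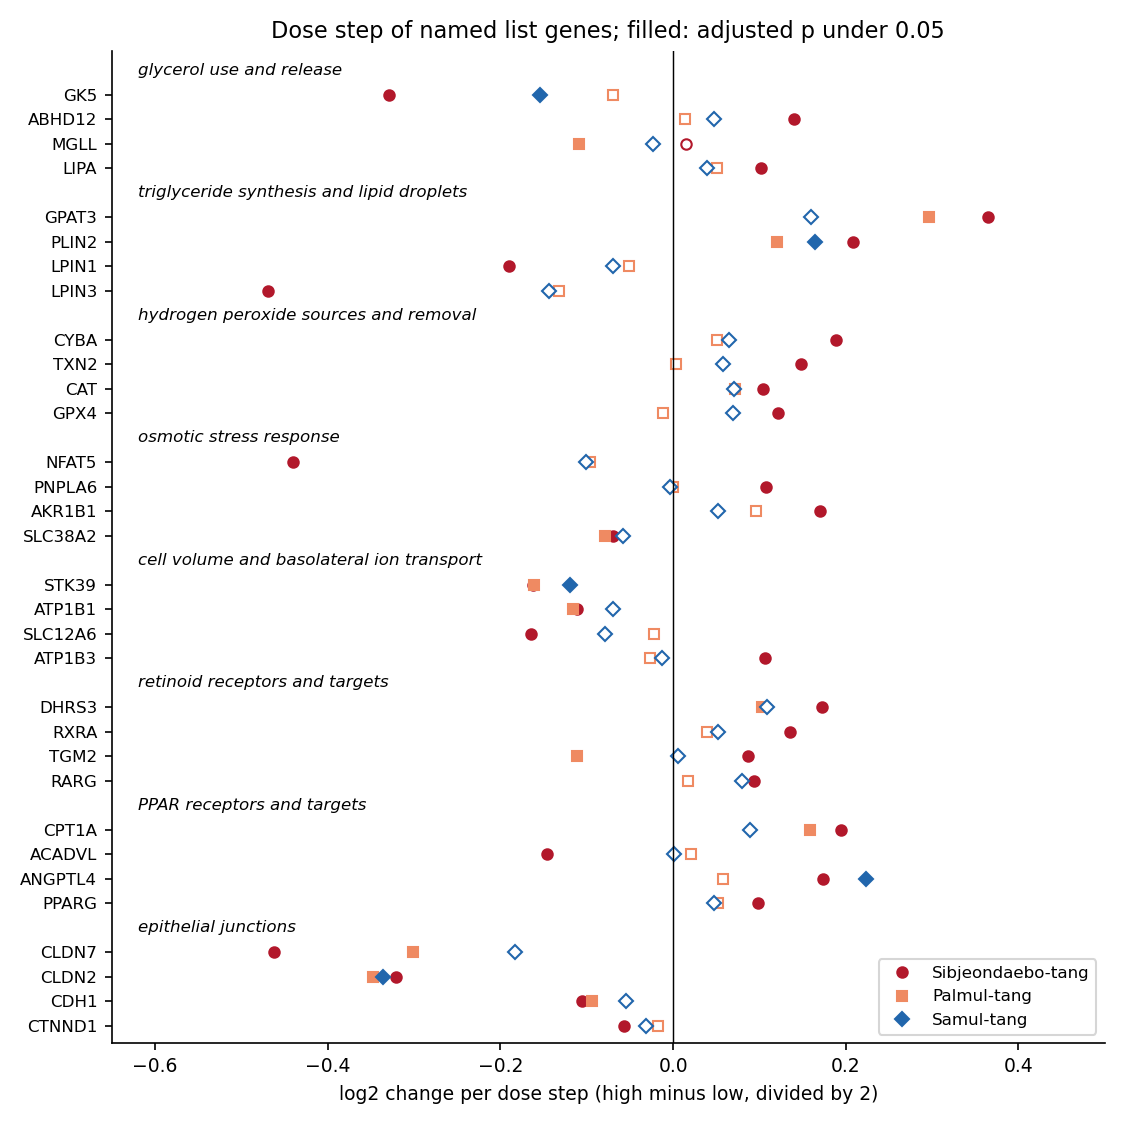
Log2 change per dose step of the named genes of 8 lists, for Sibjeondaebo-tang (circles), Palmul-tang (squares) and Samul-tang (diamonds); filled symbols have an adjusted p under 0.05. GPAT3 lies at 0.37, 0.30 and 0.16, and CLDN2 lies below 0 with each extract.

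The other lists, which cover what AQP3 carries, where it sits and what is known to act on its gene, are given as counts. Over all genes 18.5% rose and 19.9% fell with Sibjeondaebo-tang, 1.46% and 2.02% with Palmul-tang, and 0.604% and 0.74% with Samul-tang. Of 23 tested genes that make or remove hydrogen peroxide, 11 rose and 1 fell with Sibjeondaebo-tang, 1 rose and 3 fell with Palmul-tang, and 0 rose and 1 fell with Samul-tang. The 11 included CYBA, a subunit of NADPH oxidases (0.19), TXN2, a mitochondrial thioredoxin (0.15), and GPX4, a glutathione peroxidase (0.12). Of 9 genes of the osmotic stress response, 3 rose and 3 fell with Sibjeondaebo-tang. NFAT5, the transcription factor of that response, was at 38.3 ± 1.23 CPM with Sibjeondaebo-tang at the high dose and 70.5 ± 1.55 CPM at the low dose (SD, n = 3 each), a step of -0.44. With Palmul-tang 0 of the 9 rose and 1 fell, and with Samul-tang 0 did either. The 3 that fell with Sibjeondaebo-tang became 1 without its high-dose replicate 2 or 3 or its low-dose replicate 3, and the 1 with Palmul-tang became 0 without its high-dose replicate 1 or its low-dose replicate 2 or 3. The 1 was SLC38A2, an amino acid transporter (-0.08), whose call was also lost without low-dose replicate 1 (adjusted p = 0.0823) and in a fit to the groups compared alone (0.0959). Of the hydrogen peroxide genes, the 1 that fell with Sibjeondaebo-tang was lost without replicate 2 or 3 of either dose, the 1 that rose with Palmul-tang without high-dose replicate 1 or low-dose replicate 3, and the 1 that fell with Samul-tang without low-dose replicate 3. Of 19 genes of cell volume and basolateral ion transport, 5 rose and 5 fell with Sibjeondaebo-tang, 0 rose and 3 fell with Palmul-tang, and 0 rose and 1 fell with Samul-tang. Among them ATP1B1, a subunit of the basolateral sodium pump, fell by 0.11 with Sibjeondaebo-tang and by 0.12 with Palmul-tang. The 1 call with Samul-tang in that list was lost without high-dose replicate 2 or 3 or low-dose replicate 3.

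Retinoids and PPAR agonists are known to raise AQP3 in skin cells. The lists are read here against the 18.5% of all genes that rose and the 19.9% that fell with Sibjeondaebo-tang, the 1.46% and 2.02% with Palmul-tang, and the 0.604% and 0.74% with Samul-tang. Of 14 tested retinoid receptors and targets, 6 rose and 0 fell with Sibjeondaebo-tang, 1 rose and 1 fell with Palmul-tang, and 0 did either with Samul-tang. Without low-dose replicate 3 of Sibjeondaebo-tang the 6 became 3, and the 1 that rose with Palmul-tang was lost without high-dose replicate 2 or 3 or any low-dose replicate. DHRS3, a retinaldehyde reductase and retinoid target, rose by 0.17 with Sibjeondaebo-tang and had 0.10 with Palmul-tang (edgeR adjusted p = 0.0412), the call that was lost with those libraries left out (adjusted p from 0.0621 to 0.401) and in a fit to the groups compared alone (0.195). RXRA, a retinoid X receptor, rose by 0.14 with Sibjeondaebo-tang and had 0.04 with Palmul-tang (adjusted p = 0.514). TGM2, of the same list, rose by 0.09 with Sibjeondaebo-tang but fell by 0.11 with Palmul-tang (edgeR adjusted p = 0.000408 and 0.000213). Of 12 PPAR receptors and targets, 5 rose and 3 fell with Sibjeondaebo-tang, 1 rose and 1 fell with Palmul-tang, and 1 rose and 0 fell with Samul-tang. CPT1A, which brings fatty acids into mitochondria, rose by 0.19 with Sibjeondaebo-tang and by 0.16 with Palmul-tang, and had 0.09 with Samul-tang (adjusted p = 0.127). ACADVL, of the same list, fell by 0.15 with Sibjeondaebo-tang (edgeR adjusted p = 1.44e-06) and had 0.02 with Palmul-tang (adjusted p = 0.734). Without high-dose replicate 1 of Sibjeondaebo-tang the 3 PPAR genes that fell became 1. The 1 that fell with Palmul-tang was lost without low-dose replicate 2, and the 1 that rose with Samul-tang without high-dose replicate 2 or low-dose replicate 3.

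Of 19 epithelial junction genes, 1 rose and 6 fell with Sibjeondaebo-tang, 0 rose and 3 fell with Palmul-tang, and 0 rose and 1 fell with Samul-tang. Over all genes 18.5% rose and 19.9% fell with Sibjeondaebo-tang, 1.46% and 2.02% with Palmul-tang, and 0.604% and 0.74% with Samul-tang. CLDN7, a tight junction claudin, fell by 0.46 with Sibjeondaebo-tang and by 0.30 with Palmul-tang. CLDN2, the claudin that forms a pore for cations and water, had steps of -0.32, -0.35 and -0.34 with Sibjeondaebo-tang, Palmul-tang and Samul-tang (edgeR adjusted p = 0.000114, 0.000644 and 0.0179). The Samul-tang call for CLDN2 was lost without high-dose replicate 2 (0.312) or low-dose replicate 3 (0.241). The 6 junction genes that fell with Sibjeondaebo-tang became 3 without its high-dose replicate 2, and the 1 that rose was lost without its low-dose replicate 3. Epithelial keratins KRT8 (3350 to 4400 CPM) and KRT18 (2268 to 2924 CPM) were high in every library, and CDKN2A, which A549 cells lack, had 0 counts in all 30. The other epithelial markers were lower, with KRT19 at 224.9 to 300.9 CPM, CDH1 at 131.3 to 163.8 CPM and EPCAM at 17.6 to 24.3 CPM. Of the markers of other cell types, PTPRC and CD3E (immune), PECAM1 and CDH5 (endothelial) and COL1A2 (fibroblast) reached at most 8, 1, 14, 1 and 5 counts in a library. CD14 (immune) reached 3.29 CPM, KDR (endothelial) 21.5 CPM, and COL1A1, DCN and LUM (fibroblast) 2.60, 6.89 and 1.96 CPM, each with counts in all 30 libraries, and the part of these in the AQP3 values was not tested.

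The genes whose pattern was most like that of AQP3 were found by Pearson's r of mean log2 CPM over the 13 groups, among 11170 named genes whose mean log2 CPM was 2 or more. These correlations are descriptions: all genes share the same libraries and the same dose series, and the 13 points fall into dose classes. The median r was 0.08, 37 genes were above 0.9 and 7 above 0.95. CYP1B1, a cytochrome P450 and a known target of the aryl hydrocarbon receptor, came first at 0.986 (0.973 over the 30 single libraries). GPAT3 followed at 0.972, CLMP, an adhesion protein of epithelial junctions, at 0.971, and ALDH3A1, an aldehyde dehydrogenase, and PCK2, the mitochondrial phosphoenolpyruvate carboxykinase, both at 0.970. KRT4, a keratin (0.954), ASNS, asparagine synthetase (0.952), and GLA, a lysosomal galactosidase (0.946), came next. RAD51C, a DNA repair protein (0.945), and TIPARP, an ADP-ribosyltransferase of the PARP family (0.941), completed the first 10. RefSeq promoters were at hand for 7 of them, of which 5 held a GC box match, 0 a TATA box match and 3 (ASNS, RAD51C and TIPARP) a receptor core match. Promoters of CYP1B1, CLMP and ALDH3A1 were not at hand and were not searched.

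CYP1B1 had the order of AQP3 among the high doses, which is largely built in, since it was picked for its likeness over these groups. At the high dose CYP1B1 was at 259.6 CPM in the single library of Sagunja-tang and at 228.0 ± 9.25 CPM with Sibjeondaebo-tang. It was at 206.7 ± 3.01 CPM with Palmul-tang (SD, n = 3 each), 181.6 ± 0.467 CPM with Samul-tang (SD, n = 2) and 113.8 ± 2.14 CPM in vehicle cells. ALDH3A1, picked in the same way, had 2052 CPM with Sagunja-tang at the high dose, 1691 ± 43.1 with Sibjeondaebo-tang, 1649 ± 40.7 with Palmul-tang and 1445 ± 27.3 with Samul-tang. Its vehicle level, 1122 ± 57.1 CPM, lay above its mean at the low dose of each extract, unlike that of AQP3. Over the groups the log2 range of AQP3 was 1.03, beside 1.19 for CYP1B1, 1.11 for ALDH3A1, 0.73 for GPAT3 and 0.47 for CLMP. It was 0.65 for ASNS, 0.64 for TIPARP, 0.52 for PCK2, 0.33 for RAD51C, 0.32 for GLA and 0.27 for KRT4. A high r thus does not mean a change of like size. RAD51C, GLA and KRT4 were called in the dose step of Sibjeondaebo-tang but not in those of Palmul-tang and Samul-tang.

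The genes most opposite to AQP3 were HEG1 (r = -0.967), a membrane mucin-like receptor, TP53INP2 (-0.966), which acts in autophagy, the gene CPM (-0.961), a carboxypeptidase, PLCXD1 (-0.959) and H6PD (-0.956), the hexose phosphate dehydrogenase of the endoplasmic reticulum. HEG1 had 18.6 CPM with Sagunja-tang at the high dose, 21.9 ± 0.983 with Sibjeondaebo-tang, 21.0 ± 0.557 with Palmul-tang and 23.3 ± 0.286 with Samul-tang, and 27.9 ± 2.78 CPM in vehicle cells. Its means ran from 27.5 to 28.4 CPM at the medium dose, near that of the vehicle. At the low dose they ran from 30.6 to 31.8 CPM, above the vehicle mean. The list of the 10 most alike genes depended on how likeness was measured. It shared 6 genes with the list from the 30 single libraries, 6 with that from the 12 extract groups without the vehicle, 6 with that from the 10 groups without Sagunja-tang and 3 with that from Spearman's rho.

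**Figure D5:**
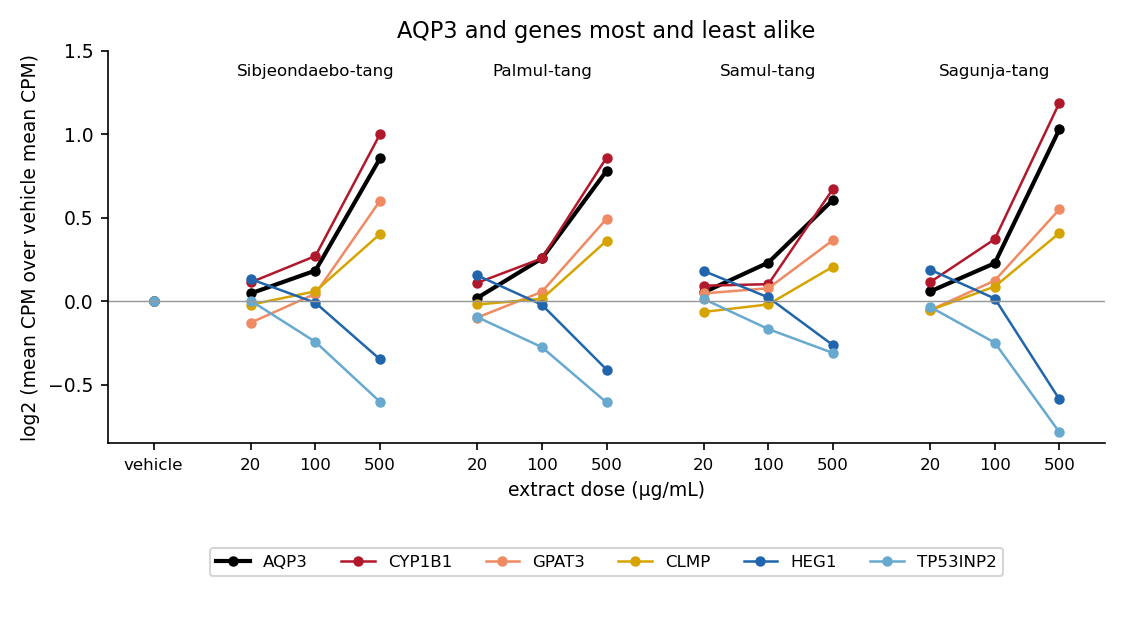
Log2 of the group mean CPM over the vehicle mean (vertical axis) by extract and dose in µg/mL, for AQP3, for CYP1B1, GPAT3 and CLMP, the 3 genes most like it, and for HEG1 and TP53INP2, the 2 most opposite; vehicle is at 0. CYP1B1 goes up along with AQP3 under each extract (r = 0.986 over 13 groups) and HEG1 goes down (r = -0.967).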

How the data were processed

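RNA was measured in 30 libraries of A549 cells. Per the labels' protocols, RNA of integrity above 7 was made into directional libraries and read as 100 bp pairs on an MGI instrument. Per the submitters' processing notes, the tools were FastQC 0.11.9, Trim Galore 0.6.5, STAR 2.7.3a and RSEM 1.3.3, with GRCh38. The annotation release and strand setting are not given in the sources used here. The authors deposited expected counts by gene from RSEM, which shares a read among the genes it matches, so genes with close copies are uncertain. Between 8.5% and 9.82% of values per library are not whole, and all were rounded. A further 240 columns in the table were not used.

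Samples were grouped by formula and dose from the labels. The filter filterByExpr, given these groups, kept 17701 genes. In edgeR 4.0.16 (R 4.3.3), 1 model with a mean for each group was fitted to the 30 libraries (TMM, robust quasi-likelihood, 17 residual degrees of freedom, common dispersion 0.00246). Benjamini-Hochberg adjustment ran over every gene tested in a comparison, and a gene rose, fell or was called where the adjusted p was under 0.05. The fit was tested on simulated data. CPM per kilobase used merged exons of GENCODE 29, and log2 CPM used a prior count of 2.

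AQP3, the lists and the tests were chosen with earlier results of these data known. Named genes were AQP3, all tested aquaporins and neighbours, up to 4 members per list with the smallest adjusted p, and the 10 genes most like AQP3 and the 5 most opposite. GK was given beside GK5 and is not in the counts of named genes' tests. Alternatives were DESeq2 1.42.0, RLE size factors, no filter, a fit to fewer groups, a replicate block, and leaving out each library. P-values weigh a difference between groups against the spread between replicate libraries, which may be technical.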

Additional observations from a re-analysis of the deposited data

Results flagged for a closer look

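The dose step of AQP3 was larger with Sibjeondaebo-tang (0.40) than with Samul-tang (0.28). The difference was 0.13 on the log2 scale per 5-fold dose (SE 0.038, edgeR quasi-likelihood test, adjusted p = 0.0358). It stood out because the test of the difference between the extracts passed over all genes. Leaving out 1 library moved the adjusted p between 0.0219 and 0.156. The part of the library codes, which also differ between these extracts, was not tested. Nor was the part of the choice of AQP3, which used the same high and low values.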

How the results depend on the processing

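The AQP3 difference between Sibjeondaebo-tang and Samul-tang at the high dose passed under every alternative run (0.23 to 0.30 with a library left out). The difference of their dose steps ran from 0.11 to 0.15 with a library left out and lost its call in 8 of 10 cases. Near 0, the low-dose difference of Sibjeondaebo-tang and Samul-tang, -0.01, turned to 0.0084 without a filter on low counts and to 0.0093 with the replicate block, and ran from -0.030 to 0.020 with a library left out. The medium-dose difference of Palmul-tang and Samul-tang ran from -0.0027 to 0.0588. The AQP3 dose steps stayed between 0.40 and 0.43, 0.37 and 0.39, and 0.27 and 0.29. Genes called in the dose step of Palmul-tang, 615, were 381 with only the groups compared and 351 to 591 with a library left out (351 without its high-dose replicate 1, 371 without its low-dose replicate 3). Those of Samul-tang, 238, were 464 without a filter, 488 with only the groups compared, 373 with the replicate block and 49 to 149 with a library left out. Of the 10 genes most like AQP3, 3 were shared under Spearman's rho and 6 under each of 3 other choices. Replicate numbers did not pair libraries: deviations correlated with a median of 0.00612 over 111 same-numbered pairs (-0.122 to 0.0887) and -0.000571 over 216 others (-0.148 to 0.137). The block changed no AQP3 call. Of the named genes' tests, 12 lost a call under a planned setting and 67 with a library left out, against 572 and 781 that did not. Depth limits the aquaporins other than AQP3, and Sagunja-tang has no replicates.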
